A study of Mus musculus with 5 samples.

Results

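Cell cycle inhibitors and p53 brake genes were examined in primary pancreatic acinar cells that lack Arid1a and in their controls. The set holds 10 genes, chosen by symbol from the 23284 genes listed for each library. They are the CIP/KIP inhibitors Cdkn1a and Cdkn1b, the INK4 inhibitors Cdkn2a, Cdkn2b, Cdkn2c and Cdkn2d, the p53 targets Mdm2, Ccng1 and Gdf15, and the cyclin gene Ccnd1. Acinar cells make and secrete the digestive enzymes. RNA came from 3 knockout libraries (Arid1afl/fl;p48-Cre mice) and 2 control libraries (p48-Cre mice), all C57BL/6 at 8 weeks of age. Both groups thus carry Cre recombinase driven by p48 (Ptf1a), which acts in the developing pancreas. Only the knockouts carry floxed Arid1a, which by this design is to be recombined in pancreatic epithelium and not in blood vessel, immune or stromal cells. The cells of both groups were dissociated enzymatically and left in serum-containing medium before RNA was taken. The labels do not say whether each library came from a separate animal, and the p-values therefore reflect a library-to-library spread that can be technical.

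Cells leave the cell cycle when inhibitors block the cyclin-dependent kinases that inactivate the retinoblastoma protein. INK4 proteins bind CDK4 and CDK6 and keep them from D-type cyclins, whereas CIP/KIP proteins bind assembled cyclin-CDK complexes. After DNA damage or other stress, p53 switches on Cdkn1a (p21), together with Mdm2, whose product degrades p53, and Ccng1 and Gdf15. Lasting expression of p21 and of the Cdkn2a product p16INK4A is widely used as a sign of senescence, and the comparison below asks whether acinar cells without Arid1a carry such transcripts.

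The upstream sequences of Cdkn1a, Mdm2 and Ccng1, taken from RefSeq on GRCm38.p6, are shown. They are p53 targets whose values are set side by side below, and Gdf15, a further p53 target, is not shown. Each run holds the 250 bases before a transcription start. RefSeq gives Cdkn1a a pair of starts, 2790 bases apart on chromosome 17. Capitals mark matches on either strand to the p53 consensus decamer or to the Sp1 GC box GGGCGG.
Cdkn1a, first start (chr17:29090729-29090978, plus strand): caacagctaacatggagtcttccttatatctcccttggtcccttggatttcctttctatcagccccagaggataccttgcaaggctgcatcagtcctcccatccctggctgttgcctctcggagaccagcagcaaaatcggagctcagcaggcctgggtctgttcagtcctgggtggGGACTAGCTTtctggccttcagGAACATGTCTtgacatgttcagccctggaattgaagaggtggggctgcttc
Cdkn1a, second start (chr17:29093519-29093768, plus strand): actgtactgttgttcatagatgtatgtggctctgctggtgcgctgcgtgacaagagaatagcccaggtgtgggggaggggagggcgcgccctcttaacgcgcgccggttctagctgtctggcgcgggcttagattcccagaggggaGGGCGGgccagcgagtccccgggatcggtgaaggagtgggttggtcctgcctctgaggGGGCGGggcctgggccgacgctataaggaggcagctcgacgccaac
Mdm2 (chr10:117710759-117711008, minus strand): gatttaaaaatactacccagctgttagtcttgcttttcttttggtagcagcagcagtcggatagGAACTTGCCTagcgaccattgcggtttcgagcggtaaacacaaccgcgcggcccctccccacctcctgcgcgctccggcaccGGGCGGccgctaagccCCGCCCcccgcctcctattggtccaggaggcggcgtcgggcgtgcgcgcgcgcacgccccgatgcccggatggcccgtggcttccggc
Ccng1 (chr11:40755287-40755536, minus strand): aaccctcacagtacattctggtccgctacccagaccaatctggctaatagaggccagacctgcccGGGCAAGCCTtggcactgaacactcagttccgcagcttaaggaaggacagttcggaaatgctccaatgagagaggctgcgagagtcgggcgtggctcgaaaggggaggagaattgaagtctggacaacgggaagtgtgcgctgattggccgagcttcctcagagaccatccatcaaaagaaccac
The first Cdkn1a start had 2 p53 decamer matches before it, at -73 to -64 and at -51 to -42 from the start, and the second start had none and 2 GC boxes. Mdm2 and Ccng1 had 1 decamer match each, and Mdm2 also 2 GC boxes. A decamer match was found before 7.13% of 32851 RefSeq starts and a GC box before 32.7%. The TATA box TATAAA, the CRE motif TGACGTCA, the AP-1 motif TGACTCA and the stress response motif TGATGNAA, searched on both strands, had no match in these 4 windows and one before 12.4%, 1.55%, 4.46% and 3.45% of all starts. Sequences were found for 9 of the 10 genes, not for Ccnd1. Of those not shown, Gdf15 had no decamer match before either of its listed starts, and the INK4 gene Cdkn2d had 1. A p53 target of the set thus need not have a match in this window. A match is a description of letters and not a site in use.

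The groups differed strongly in depth. Without Rn45s, the ribosomal RNA precursor, and Lars2, whose counts followed it, the knockout libraries held 3155357 to 3568906 counts and the control libraries 67514 and 72006. Rn45s took 6.78% to 10.9% of the knockout counts and 72.6% and 82.2% of the control counts. A single count therefore equalled 0.280 to 0.317 CPM (counts scaled to 1e6 counts without Rn45s and Lars2) in the knockouts and 14.8 and 13.9 CPM in the controls. Depth separated the libraries exactly as genotype did, and the effects of genotype and of library quality cannot be told apart. Arid1a itself had 44, 121 and 42 counts in the knockouts against 0 and 3 in the controls, which made a pooled CPM ratio of 0.956 (exact 95% interval 0.323 to 4.67). Whole-gene counts cannot show whether the floxed exons were lost, and so the labels were not checked by them. Of the acinar markers, Cpa1, Ctrb1 and Pnlip were abundant in all 5 libraries, and Ptf1a had 85, 94 and 14 counts in the knockouts against 0 and 0 in the controls.

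Cdkn1a had the highest level per kilobase of the 10 genes in every knockout library and was the one gene of the set whose level was higher in the knockouts beyond counting error. It had 384, 869 and 137 counts in the knockouts, against 0 and 2 in the controls. In CPM this was 122, 243 and 41.0 in the knockouts, against 0 and 27.8 in the controls, so the groups did not overlap. The pooled level was 138 CPM in the knockouts and 14.3 CPM in the controls, or 9.63 times as much (exact 95% interval 2.66 to 79.6). At the knockout level 19.3 counts would have been expected in both controls together, where 2 were found. Knockout 3 lay nearest to the controls, and its counting interval of 34.4 to 48.4 CPM overlapped those of control 1 (0 to 54.6 CPM) and control 2 (3.36 to 100.3 CPM). Without knockout 2 the ratio was 5.59 (1.54 to 46.3), and without control 1 it was 4.97 (1.37 to 41.1). On the log2 scale edgeR put the change at 3.25 ± 1.57 (SE), which did not pass over all genes (quasi-likelihood test, adjusted p = 0.345). DESeq2, with its own size factors, called it (log2 fold change 4.36, adjusted p = 0.00610), as did the edgeR quasi-likelihood test on totals that include Rn45s and Lars2 (5.83, adjusted p = 0.0415). Both settings moved all genes upward: DESeq2 called 753 of 8291 genes higher (median log2 fold change 1.42) and the full totals 141 of 8259 (median 2.73). Limma-voom (2.74, adjusted p = 0.985) and the edgeR test with the replicate number as a block (3.98, adjusted p = 0.962) did not call Cdkn1a. In bulk RNA, more cells that express Cdkn1a and more Cdkn1a RNA per cell cannot be told apart.

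**Figure D1:**
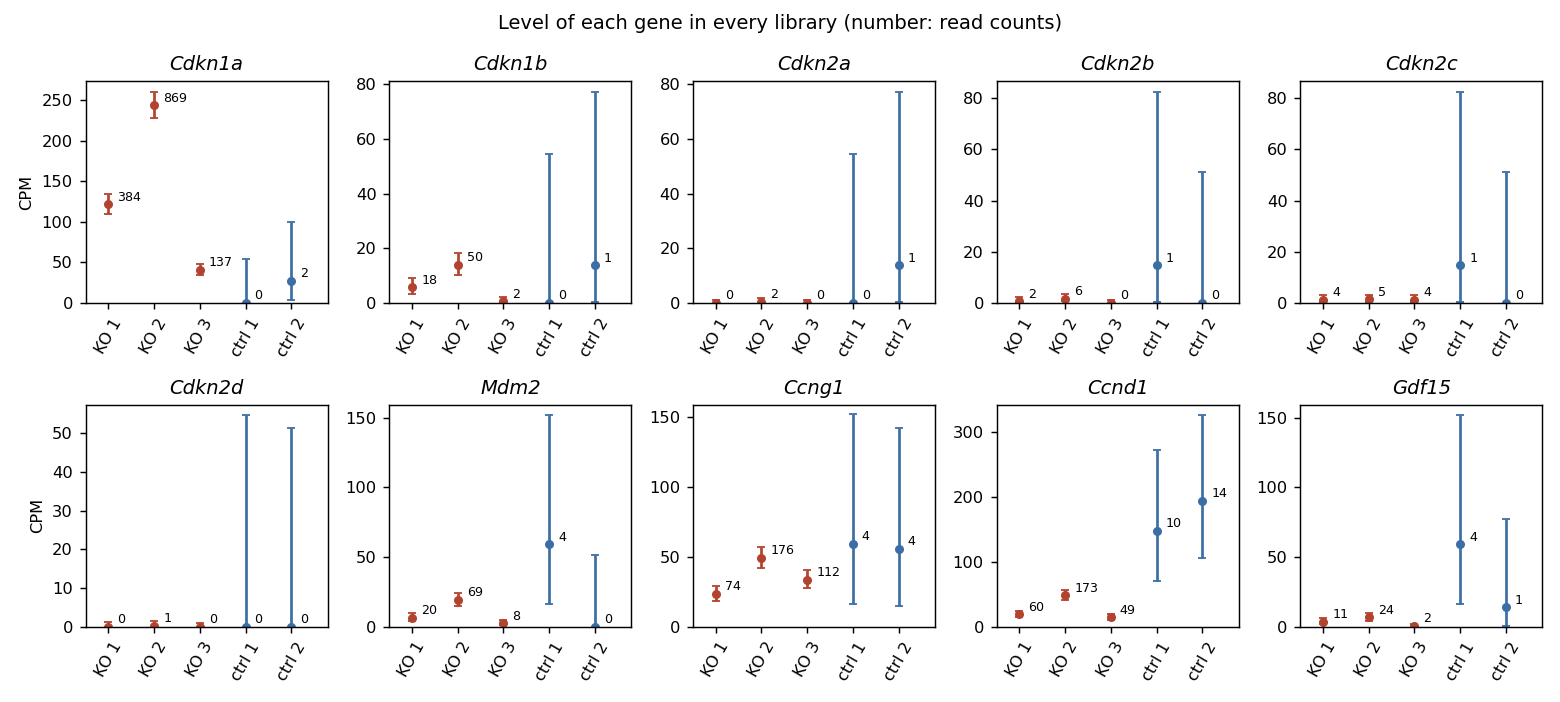
CPM of each of the 10 genes in every library, with knockout libraries (KO) in red left of control libraries (ctrl) in blue. Bars are exact 95% Poisson intervals of the count and the number beside each point is the read count. Cdkn1a reached 243 CPM in knockout 2 and had 0 and 2 control counts, whereas both control points of Ccnd1 lay above all 3 knockout points.

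Cdkn1b (p27), the other CIP/KIP inhibitor, is held high in resting cells mainly by protein stability. It had 18, 50 and 2 counts in the knockouts, against 0 and 1 in the controls. The knockout levels of 5.70, 14.0 and 0.598 CPM lay across the control levels of 0 and 13.9 CPM. The pooled ratio was 0.970, with an interval of 0.168 to 38.8, so neither a rise nor a fall was detectable at this depth. The knockout libraries differed among themselves: the level in knockout 2 was 23.4 times that in knockout 3 (exact 95% interval 6.16 to 199). Its log2 fold change was -0.07 ± 2.09 (SE; adjusted p = 0.989, edgeR) and turned positive under most other scalings.

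The 4 INK4 genes were near the floor of detection in both groups. Cdkn2a, whose single symbol covers the transcripts of both p16INK4A and p19ARF, had 0, 2 and 0 counts in the knockouts, against 0 and 1 in the controls. In the 10069384 knockout counts as a whole this was 0.199 CPM. Cdkn2b (p15), its neighbour on chromosome 4, had 2, 6 and 0 counts in the knockouts, against 1 and 0 in the controls. Its pooled ratio was 0.111, with an interval of 0.0149 to 4.92. Cdkn2c (p18) had 4, 5 and 4 counts in the knockouts, against 1 and 0 in the controls (ratio 0.180, interval 0.0271 to 7.65). Cdkn2d (p19INK4D) had 1 count, in knockout 2, against none in the controls. At the knockout levels of these 4 genes fewer than 1 count each would have been expected in both controls together (0.0277 for Cdkn2a, 0.111 for Cdkn2b, 0.180 for Cdkn2c and 0.0139 for Cdkn2d). A difference in INK4 transcripts was therefore not detectable in either direction. The knockout libraries alone do bound their level: per kilobase of exon, Cdkn2b was the highest of the 4 with 0.572 pooled CPM, where Cdkn1a had 38.9.

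Ccnd1 encodes cyclin D1, the partner of CDK4 and CDK6 that growth signals induce and whose transcript also accumulates in arrested cells that keep growing. Its level was lower in the knockouts. It had 60, 173 and 49 counts in the knockouts, against 10 and 14 in the controls, which made it the member with the most control counts. In CPM this was 19.0, 48.5 and 14.6 in the knockouts, against 148 and 194 in the controls. All 3 knockout levels lay below both control levels, and the counting intervals did not overlap either, the highest in the knockouts being 41.5 to 56.3 CPM and the lowest in the controls 71.0 to 272 CPM. The pooled ratio was 0.163, with an interval of 0.107 to 0.258, and it was 0.0975 without knockout 2. The log2 fold change of -2.64 ± 1.23 (SE) did not pass over all genes (adjusted p = 0.312, edgeR), and DESeq2 gave an adjusted p of 0.102. With Rn45s and Lars2 in the totals the ratio was 0.931 (0.613 to 1.48), so the lower level depends on leaving ribosomal counts out. Ccnd1 shares 1100 exon bases with LTO1 on the opposite strand in GENCODE M21 (GRCm38), and reads there cannot be assigned without strand. LTO1 is listed under its older symbol Oraov1, which had 6, 6 and 5 counts in the knockouts against 1 and 0 in the controls.

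Of the other p53 targets in the set, Gdf15, Mdm2 and Ccng1, none had a pooled ratio above 1 with totals without Rn45s and Lars2. Gdf15, a secreted stress cytokine that p53 and the integrated stress response both induce, had 11, 24 and 2 counts in the knockouts, against 4 and 1 in the controls. Its levels of 3.49, 6.72 and 0.598 CPM in the knockouts lay below those of 59.2 and 13.9 CPM in the controls. The pooled ratio was 0.103 (0.0402 to 0.334). It rests on control 1, since without that library it was 0.265 with an interval of 0.0446 to 10.7, while without control 2 it was 0.0620 (0.0223 to 0.240) and without knockout 2 it was 0.0558. With Rn45s and Lars2 in the totals it was 0.586 (0.230 to 1.91), an interval that holds 1. The log2 fold change of -3.31 ± 1.55 (SE) did not pass over all genes (adjusted p = 0.317, edgeR). Mdm2, the ubiquitin ligase that restrains p53, had 20, 69 and 8 counts in the knockouts, against 4 and 0 in the controls. Its levels of 6.34, 19.3 and 2.39 CPM in the knockouts overlapped those of 59.2 and 0 CPM in the controls, with a pooled ratio of 0.336 (0.127 to 1.26) and a change of -1.63 ± 1.55 on the log2 scale (SE; adjusted p = 0.597, edgeR). The ratio of Mdm2 was 0.150 (0.0526 to 0.589) without knockout 2 and 0.163 (0.0615 to 0.609) without control 2, and it turned to 1.92 (0.726 to 7.19) with Rn45s and Lars2 in the totals. Ccng1, which encodes cyclin G1, an atypical cyclin that recruits a phosphatase to MDM2, had 74, 176 and 112 counts in the knockouts, against 4 and 4 in the controls. Levels of 23.5, 49.3 and 33.5 CPM in the knockouts lay below those of 59.2 and 55.6 CPM in the controls. The counting intervals overlapped, and the pooled ratio was 0.627 (0.315 to 1.46), with a change of -0.70 ± 1.43 on the log2 scale (SE; adjusted p = 0.797, edgeR). With Rn45s and Lars2 in the totals the ratio of Ccng1 turned to 3.58 (1.80 to 8.36), and its edgeR change turned positive under several other scalings.

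**Figure D2:**
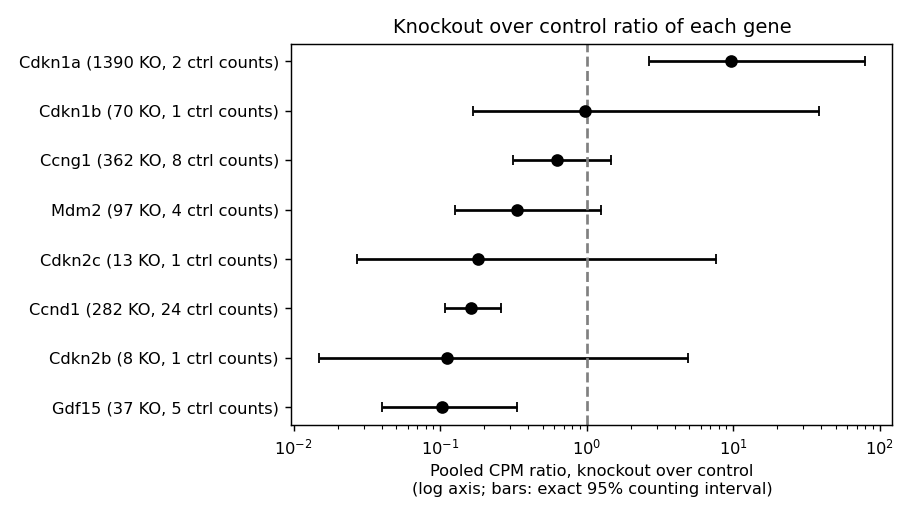
Pooled CPM ratio of the knockout over the control libraries on a log axis, with exact 95% counting intervals, for the 8 genes above the floor in at least 1 group and with a control count. The interval of Cdkn1a (2.66 to 79.6) lies above 1, those of Ccnd1 (0.107 to 0.258) and Gdf15 (0.0402 to 0.334) below 1, and the other 5 hold 1.

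Read against all genes, the counts of these outcomes were small. Of the 10 members 1 had a counting interval above 1 and 2 had one below 1, where 3.41% and 18.1% of the 16968 genes with any count did so; the share lower is near that of all genes. Levels did not overlap, with the knockouts higher, for 1 member (30.3% of all genes) and, with the knockouts lower, for 3 members (5.99%). Genes with many control counts mostly had lower levels in the knockouts: of the 1603 genes with at least 8 control counts, to which Ccnd1 and Ccng1 belong, 79.9% had an interval below 1 and 5.49% one above 1. In the edgeR quasi-likelihood test 6 of the 10 members passed the filter on low counts and none was called in either direction, where 0.193% of the 8291 genes tested were called higher and 1.60% lower. The same model called none of the genes given large changes in simulated counts of these depths. That simulation gave all genes 1 common dispersion (spread beyond counting error), whereas the real counts gave 16 genes called higher and 133 lower. It therefore cannot set the power of the test for the members, and a missing call is not shown to mean no change. At an unadjusted p under 0.05 (edgeR) Cdkn1a was higher and Ccnd1 and Gdf15 were lower, where 162 of all 8291 genes tested were higher and 910 lower. An exact two-sided permutation test over the 5 libraries gave p = 0.2 for Cdkn1a, Ccnd1, Gdf15 and Ccng1, the smallest that 2 against 3 libraries allow.

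The counting intervals are too narrow, because control counts came in clusters. Of the 576 genes with 4 control counts in all, as Mdm2 had, 69.6% had them all in a single control, where independent counts would give 12.6%. Of the 248 genes with 8 control counts, 58.9% had them all in a single control, against 0.804% for independent counts, and Ccng1 with 4 and 4 was not among them. At the 5 control counts of Gdf15 the shares were 64.6% of 469 genes against 6.31% for independent counts. At the 24 of Ccnd1 they were 21.4% of 14 genes against 1.55e-05%, so that its interval too is narrow, although its own counts were spread as 10 and 14. The shares were not taken at the 2 control counts of Cdkn1a, which both lay in control 2, and its interval carries the same limit. Some control counts also fell on genes that acinar cells are not expected to use. Of 1458 receptor genes of smell and pheromone neurons (Olfr and Vmn symbols), 2.26% had at least the 2 control counts of Cdkn1a, 1.10% at least the 5 of Gdf15 and none the 24 of Ccnd1. These receptor genes summed to 11.7, 19.6 and 32.6 CPM in the knockouts, against 1511 and 1417 CPM in the controls. Their part in the lower levels of Ccnd1 and Gdf15 was not tested.

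The scale moved every fold change. Over the main and 7 other scalings the log2 fold change ran from 3.02 to 5.83 for Cdkn1a, from -2.75 to -0.23 for Ccnd1 and from -3.31 to -1.11 for Gdf15, without a change of sign, and it changed sign for Cdkn1b, Mdm2 and Ccng1. Over all genes tested the median was 0.22 (log2) with totals without Rn45s and Lars2, and moved to 1.93 with TMM factors and to 2.73 with Rn45s and Lars2 in the totals. Set against the median of the same fit, Cdkn1a stood at 2.69 to 3.10 over these scalings. On that measure Cdkn1b stood at -0.73 to -0.28, Ccng1 at -1.04 to -0.60, Mdm2 at -2.25 to -1.86, Ccnd1 at -3.08 to -2.84 and Gdf15 at -3.85 to -3.53. A change of scale shifts all genes by nearly the same amount, and subtracting the median removes that shift, so the narrow ranges are fixed by construction and say nothing of stability.

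A comparison of genes within a library needs no scaling. Cdkn1a made up 86.5%, 83.4% and 73.7% of the summed counts of Cdkn1a and Ccnd1 in the knockouts, against 0% and 12.5% in the controls. The exact binomial intervals of all 3 knockouts, the lowest starting at 66.7%, lay above those of both controls, the highest ending at 38.3%. In counts, Cdkn1a exceeded Ccnd1 in each knockout and Ccnd1 exceeded Cdkn1a in each control. Against Ccng1, the share of Cdkn1a was 83.8%, 83.2% and 55.0% in the knockouts and 0 of 4 and 2 of 6 counts in the controls, where the intervals reach 60.2% and 77.7% and overlap that of knockout 3. Ccnd1 made up 44.8%, 49.6% and 30.4% of its sum with Ccng1 in the knockouts, against 71.4% and 77.8% in the controls. The control intervals start at 41.9% and 52.4% and overlap those of knockouts 1 and 2, which end at 53.6% and 54.9%. Against Gdf15 the share of Cdkn1a was 97.2%, 97.3% and 98.6% in the knockouts and 0 of 4 and 2 of 3 counts in the controls. The interval of control 2, 9.43% to 99.2%, overlaps those of all 3 knockouts. Against Mdm2 it was 384 of 404, 869 of 938 and 137 of 145 counts in the knockouts and 0 of 4 and 2 of 2 counts in the controls, so that the groups overlapped (exact two-sided permutation p = 0.8). For the other 4 pairs the shares of the groups did not overlap, with an exact two-sided permutation p = 0.2. Their intervals did overlap, except for Cdkn1a against Ccnd1. All 5 pairs were chosen after the values of the genes were seen.

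**Figure D3:**
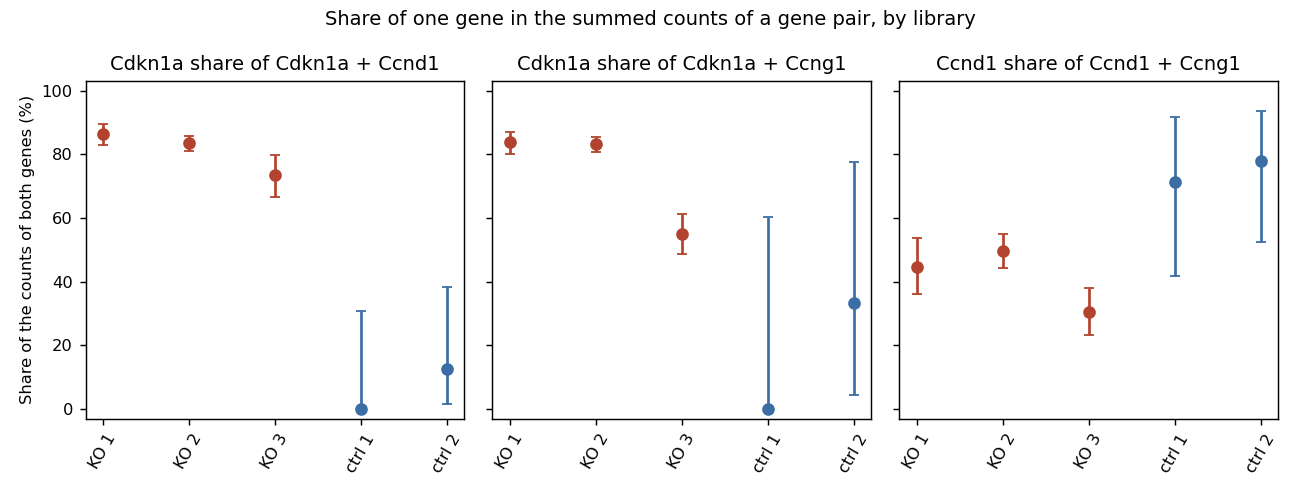
Share of 1 gene in the summed counts of a pair (percent) in each knockout library (KO, red) and each control library (ctrl, blue), with exact 95% binomial intervals. The share of Cdkn1a against Ccnd1 was 73.7% or more in the knockouts and 12.5% or less in the controls.

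Levels per kilobase of exon gave the order of the genes in each group. In the pooled knockouts Cdkn1a had 38.9 CPM per kilobase, followed by Ccng1 with 10.2, Ccnd1 with 5.95, Gdf15 with 1.98, Mdm2 with 1.90, Cdkn1b with 1.53, Cdkn2b with 0.572, Cdkn2c with 0.481, Cdkn2a with 0.169 and Cdkn2d with 0.0631. Cdkn1a came before Ccng1, and Ccng1 before Ccnd1, in each of the 3 knockouts, though Cdkn1a (9.68 to 13.6 per kilobase) and Ccng1 (7.85 to 11.5) overlapped in their counting intervals in knockout 3. Gdf15, Mdm2 and Cdkn1b did not differ beyond their spread over libraries. In the pooled controls Ccnd1 came first with 36.5 CPM per kilobase, then Gdf15 with 19.4, Ccng1 with 16.3, Cdkn2a with 6.12, Mdm2 with 5.64, Cdkn2b with 5.16, Cdkn1a with 4.03, Cdkn2c with 2.67 and Cdkn1b with 1.57, while Cdkn2d had no count. All of these but Ccnd1 rest on 8 control counts or fewer, and their order is not resolved.

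The 3 knockout libraries differed from each other by more than counting error. Knockout 2 had the highest CPM of all 10 genes and knockout 3 the lowest or a tied lowest of 9, all but Ccng1. For Cdkn1a the level in knockout 2 was 5.95 times that in knockout 3 (exact 95% interval 4.96 to 7.17), for Mdm2 8.08 times (3.88 to 19.5), for Gdf15 11.2 times (2.79 to 98.2) and for Ccnd1 3.31 times (2.40 to 4.64). Ccng1 varied least of the tested members, with an interval of 1.59 to 2.80 for the ratio of knockout 2 to knockout 1. The share of counts outside the 100 most abundant genes, which are mostly not of this set, moved in the same order, at 14.4%, 25.2% and 8.50% in the knockouts, against 27.5% and 25.1% in the controls. Scaled to 1e6 counts outside those 100 genes, Cdkn1a stood at 842, 966 and 482 in the knockouts, against 0 and 111 in the controls. On that scale Ccnd1 stood at 132, 192 and 172 in the knockouts, against 538 and 776 in the controls, still without overlap. Ccng1 stood at 162, 196 and 394 in the knockouts, against 215 and 222 in the controls, so its groups overlapped there and knockout 3 was highest.

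Stress genes of dissociated cells had the same order over the knockouts as Cdkn1a, but so did most other lists. The order was shared by the other p53 targets, p53 and its regulators, the Polycomb list, and macrophage, endothelial and fibroblast markers. Proliferation genes and acinar, duct, islet and lymphocyte markers did not have it. The order is thus not particular to stress genes. The 23 immediate-early genes, which tissue dissociation induces, summed to 4892, 10157 and 612 CPM in the knockouts, against 2044 and 1458 CPM in the controls. Of 21 tested, 1 was called higher and none lower, with a median log2 fold change of 1.95 against 0.22 over all genes. At an unadjusted p under 0.05 (edgeR) 4 were higher and none lower, where 162 of all 8291 genes were higher and 910 lower. Counting intervals lay above 1 for 13 of the 23 and below 1 for 2, where 3.41% and 18.1% of all genes did so. The called gene was Egr1, a growth factor response factor, at 335, 987 and 26.9 CPM in the knockouts against 0 and 13.9 CPM in the controls (adjusted p = 0.0173, edgeR). The 16 integrated stress response genes summed to 6867, 8826 and 2911 CPM in the knockouts, against 1185 and 2639 CPM in the controls, with none of 14 tested called. Of these 16 genes 6 had a counting interval above 1 and 3 had one below 1. Nupr1, a chromatin-associated stress protein of the pancreas, and Atf3, a stress transcription factor, were the most abundant of them, at 5182 ± 2313 and 441 ± 456 CPM in the knockouts (SD, n = 3) against 1351 ± 780 and 113 ± 55.7 CPM in the controls (SD, n = 2). Gdf15, itself a target of that response, did not share their direction. Knockout 3 had 612 CPM of immediate-early genes, below both controls, and 41.0 CPM of Cdkn1a. Its counting interval for Cdkn1a overlapped those of both controls. The part of dissociation stress in the level of Cdkn1a was not tested.

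The other p53 target genes had no member called. Of 36 listed, 35 were in the files and 29 tested, and the edgeR test gave no call in either direction, with a median log2 fold change of 0.47 against 0.22 over all genes. At an unadjusted p under 0.05, 1 was higher and 1 lower (edgeR). Counting intervals of the ratio lay above 1 for 3 of the 35 genes and below 1 for 3, where 3.41% and 18.1% of all genes did so. The list summed to 924, 1578 and 303 CPM in the knockouts, against 563 and 722 CPM in the controls, so that knockouts 1 and 2 lay above both controls and knockout 3 below both. The pooled ratio of the sum was 1.47 (exact 95% interval 1.196 to 1.83). Btg2, an antiproliferative gene that is also immediate-early, had 321 ± 235 CPM in the knockouts and 106 ± 66.1 CPM in the controls (SD, n = 3 and 2). Perp, a p53 target of cell adhesion and death, had 116 ± 88.4 CPM in the knockouts and 100.4 ± 4.57 CPM in the controls. Of p53 and its regulators 2 of 14 tested were called lower and none higher, with a median log2 fold change of -2.44, where 1.60% of all genes tested were called lower and 0.193% higher. Counting intervals lay below 1 for 11 of 19 and above 1 for none, against 18.1% and 3.41% of all genes. The share below 1 depends on control counts: it was 79.9% for genes with at least 8 of them, and 3 of these 19 genes had none. A fall particular to this list is therefore not shown. The 2 called genes were Mdm4, an inhibitor of p53, with 6, 10 and 1 counts in the knockouts against 7 and 2 in the controls (adjusted p = 0.0368, edgeR), and Chek2, a damage checkpoint kinase, with 0, 3 and 0 against 10 and 4 (adjusted p = 0.00133, edgeR). That list summed to 64.3, 157 and 25.7 CPM in the knockouts, against 578 and 611 CPM in the controls, and rested on 39 and 44 control counts.

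With totals without Rn45s and Lars2, cell cycle genes summed to less in each knockout than in either control. The sums of these and the other lists were not taken with Rn45s and Lars2 in the totals. On such totals the pooled ratio of Ccnd1 moved from 0.163 to 0.931, so the direction of these sums may depend on the scale. Of 13 tested genes of Rb, E2F, cyclins and CDKs none was called, with a median log2 fold change of -1.11 and a sum of 140, 217 and 79.2 CPM in the knockouts against 607 and 278 CPM in the controls. Tfdp2, a dimer partner of E2F, had 173, 199 and 59 counts in the knockouts against 1 and 0 in the controls, and Cdc25c, a phosphatase of mitotic entry, had 0, 0 and 4 against 5 and 5. Proliferation genes summed to 32.3, 93.3 and 41.0 CPM in the knockouts, against 622 and 264 CPM in the controls, from 42 and 19 control counts. Of 11 tested, 1 was called lower and none higher, where 1.60% of all genes tested were called lower and 0.193% higher. The called gene was Cdc45 of the replicative helicase, with 3, 6 and 0 counts in the knockouts against 1 and 13 in the controls (adjusted p = 0.00791, edgeR). Nearly all of its control counts thus lay in control 2. Mki67 had 3, 23 and 17 counts and Top2a 2, 15 and 8 counts in the knockouts, against 2 and 1 and against 5 and 1 in the controls (both named after their values were seen). Of 17 tested senescence-associated genes other than the members none was called, with a median of -0.67; Igfbp7, a secreted protein, had 30.3 ± 24.2 CPM in the knockouts and 73.1 ± 64.1 CPM in the controls (SD, n = 3 and 2). Of 10 tested genes of the Polycomb list, made of repressors of the Cdkn2a locus and Kdm6b, none was called either (median 0.30); Kdm6b, a demethylase that removes the Polycomb mark, had 87, 225 and 15 counts in the knockouts against 0 and 6, and Cbx2 2, 8 and 5 against 0 and 6. Of the further inhibitor-related genes, Cdkn2aipnl had 98, 123 and 70 counts in the knockouts against 0 and 1 in the controls, and Cdkn2aip 16, 39 and 2 against 0 and 2, with neither called. At an unadjusted p under 0.05 (edgeR), 3 tested genes of Rb, E2F, cyclins and CDKs were lower and 0 higher, and 3 proliferation genes were lower and 0 higher. At the same p 2 other senescence-associated genes were lower and 1 higher, 1 integrated stress response gene was lower and 2 higher, and no Polycomb gene passed. Over all 8291 genes tested, 910 were lower and 162 higher at that p.

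**Figure D4:**
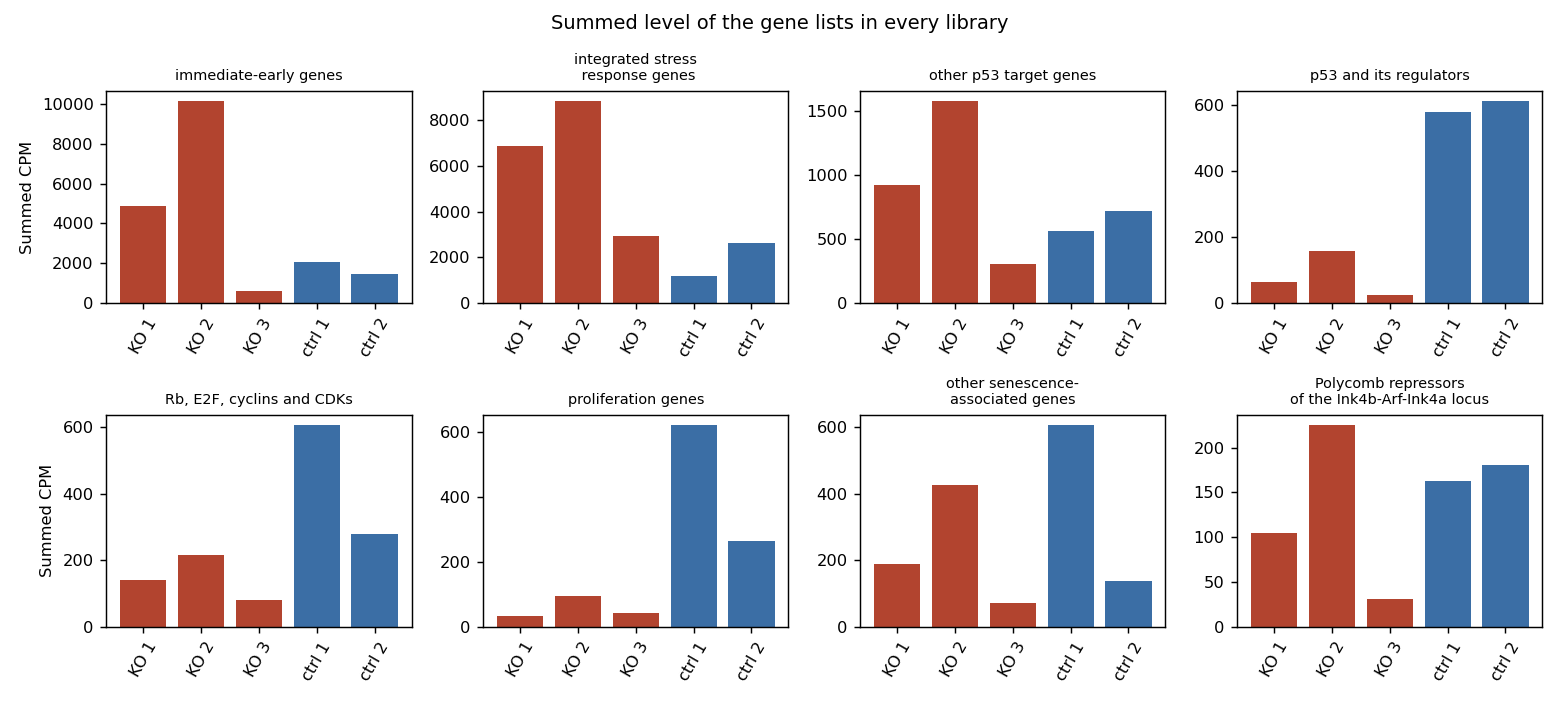
Summed CPM of 8 gene lists in each knockout library (KO, red) and each control library (ctrl, blue), on axes that start at 0. Immediate-early genes reached 10157 CPM in knockout 2 and 612 CPM in knockout 3, while p53 and its regulators had 578 and 611 CPM in the controls and at most 157 CPM in a knockout.

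Markers of other cells varied over the same libraries. Macrophage markers summed to 69.7, 266 and 27.8 CPM in the knockouts, against 59.2 and 208 CPM in the controls, with Cd14 at 170, 729 and 15 counts against 1 and 0, Itgam at 1, 0 and 0 against 0 and 10, and Cd68 at 7, 52 and 0 against 0 and 0. Endothelial markers summed to 172, 207 and 44.2 CPM in the knockouts, against 0 and 97.2 CPM in the controls, all of it from Esam, and Pecam1 and Cdh5 had no control count. Fibroblast and stellate markers summed to 113, 266 and 46.0 CPM in the knockouts, against 489 and 431 CPM in the controls. Lymphocyte markers summed to 21.2, 116 and 33.5 CPM in the knockouts, against 311 and 125 CPM in the controls. Islet markers summed to 191, 1023 and 223 CPM in the knockouts, against 104 and 708 CPM in the controls, and duct markers to 2004, 3685 and 5437 CPM in the knockouts, against 7909 and 1972 CPM in the controls. None of the tested genes of these 6 lists was called in either direction (edgeR); at an unadjusted p under 0.05, 3 lymphocyte and 3 fibroblast markers were lower and 1 islet marker was higher. Knockout 2, highest in all 10 members, was also highest of the knockouts in each of these lists but the duct markers. The part of other cells in the levels of Cdkn1a and Ccnd1 was not tested.

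Few genes could be compared with Ccnd1 over all libraries. Of 313 other tested genes with at least 5 counts in each of the 5 libraries, the nearest to Ccnd1 in centred log2 CPM were Arhgef10l, Col18a1, a basement membrane collagen, and Nup210, a nuclear pore protein, at distances of 0.44, 0.47 and 0.49. Arhgef10l had 9.51, 19.9 and 5.08 CPM in the knockouts, against 74.1 and 83.3 CPM in the controls. All 3 genes had only 5 or 6 counts in each control.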

How the data were processed

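RNA of primary acinar cells was measured in 3 knockout and 2 control libraries. The deposited values are raw counts for each gene symbol, with no normalization by the authors and no row of unassigned reads. Libraries were made with a poly(A) capture kit that does not mark strand, per the labels' protocols. The build mm9 and the tools HTSeq 0.9.1, TopHat2 2.1.1, Cuffdiff 2.2.1.5 and Cuffnorm 2.2.1.2 are named in the submitters' processing notes, without their roles. The sources used here do not give the annotation, the strand setting or the treatment of multiply mapped reads.

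For CPM, Rn45s and Lars2 were left out of each total, which left 3155357 to 3568906 counts in the knockouts and 67514 and 72006 in the controls. Ratios pool the counts of a group and carry exact 95% binomial (Clopper-Pearson) intervals, which cover counting error only, since reads without molecular identifiers are not independent molecules; single levels carry exact Poisson intervals. The floor of detection was 3 counts. The quasi-likelihood model was fitted in edgeR 4.0.16 under R 4.3.3 (filterByExpr, robust, group as the only term, the same totals, no further factors), with Benjamini-Hochberg adjustment over 8291 genes and calls at an adjusted p under 0.05. On simulated data with the libraries' depths the model recovered the direction of every tested gene given a large change but called none of them. The simulation used 1 common dispersion for all genes, unlike the real counts, and so does not set the power of the test. Permutation tests used log2(CPM + 1) for genes and percentages for shares (scipy 1.17.1). Exon lengths and overlaps came from GENCODE M21 on GRCm38 by symbol, a later build than that of the counts.

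All 10 members and Arid1a are named whatever their values, with up to 4 called genes of each list or, where none was called, its 2 most abundant; 1 gene that this rule names is not reported here. The members, lists and tests were chosen with earlier results of these data known. The 2 list genes Adgre1 and Tnfrsf10c were not found by symbol. Of the lists, the acinar markers had 1 of 19 genes called higher (Amy1) and 1 called lower (Cel). Replicate numbers were not used to pair the libraries in the main fit. Deviations of equally numbered libraries from their group means correlated at -0.00968 and -0.0176 over 197 abundant genes. The deviations of 2 controls mirror each other, so these values cannot exclude a pairing. Alternatives were TMM, RLE and upper quartile factors, other totals and filters, DESeq2 1.42.0, limma-voom (limma 3.58.1), the replicate number as a block, and each library left out.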

Additional observations from a re-analysis of the deposited data

How the results depend on the processing

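The set of 10 genes had no member called by the edgeR quasi-likelihood test under any alternative, with 1 exception: Cdkn1a was called with totals that include Rn45s and Lars2, and DESeq2 called it too. The pooled ratio of Cdkn1a lay above 1 under every alternative that gave a value (4.97 to 55.0), as did its interval where one was computed; without control 2 no ratio could be had, since control 1 has no count, and the same holds for Cdkn1b without control 2 and for Mdm2, Cdkn2b and Cdkn2c without control 1. With Rn45s and Lars2 in the totals the ratios of Ccng1, Ccnd1 and Gdf15 were 3.58, 0.931 and 0.586, so that Ccng1 turned and the intervals of Ccnd1 and Gdf15 held 1. With 1 library left out the ratio of Gdf15 ran from 0.0558 to 0.265 and that of Mdm2 from 0.150 to 0.462, where the interval of Mdm2 fell below 1 without knockout 2 or control 2. Totals without the 100 most abundant genes, chosen after seeing the data, gave 15.5 for Cdkn1a and 0.263 for Ccnd1.

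The edgeR log2 fold change of Ccng1 turned to 1.26 with TMM, 1.31 with TMM without Rn45s and Lars2, 0.89 with RLE, 1.68 with full totals, 0.19 without the 100 most abundant genes and 0.89 in DESeq2. That of Cdkn1b turned to 1.31, 1.36, 0.87, 2.45, 0.38 and 0.83 in the same settings, to 0.0074 with totals that also leave out the acinar markers, to 0.64 with the replicate block, and ran from -1.03 to 7.11 with 1 library left out. That of Mdm2 turned to 0.48 with full totals and ran from -2.72 to 7.58 with 1 library left out. With a control left out, the lone control was assumed to vary like the knockouts, and the median over all genes moved by 5.84 without control 1 and 5.35 without control 2.

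The edgeR quasi-likelihood test called 16 genes higher and 133 lower in all, with 162 and 910 at an unadjusted p under 0.05, and 1 and 3 in the pathway lists. TMM on all genes called 5 higher and 27 lower (0 higher in the lists). TMM without Rn45s and Lars2 called 147 and 71 (4 higher in the lists), RLE 81 lower (0 higher in the lists), upper quartile factors 354 lower (0 and 5 in the lists), and full totals 141 and 17 (7 and 1 in the lists). Leaving the acinar markers out of the totals gave 2 higher in the lists, and leaving out the 100 most abundant genes gave 10 higher (0 in the lists). Without a low-count filter there were 898 lower (2 and 11 in the lists), and with 1 CPM in 2 libraries 388 lower (2 and 10). DESeq2 called 753 and 310 (18 and 5 in the lists), and limma-voom 0 higher (0 in the lists), with 27 higher at an unadjusted p under 0.05. The replicate block, in which knockout 3 has no partner, called 4 and 5 (0 and 0 in the lists). With 1 library left out the counts ran from 0 to 19 higher and 4 to 378 lower, and from 0 to 2 and 0 to 4 in the lists. The cause of these shifts was not tested. Depth in the controls, where 3 counts equal 44.4 and 41.7 CPM, limits every statement on the INK4 genes and Cdkn1b.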
